A study of Homo sapiens with 14 samples.

Results

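The acetylation mark H3K27ac was compared between LX-2 cells kept on a soft matrix and LX-2 cells kept on a stiff matrix, through the merged peak list that was deposited for each. LX-2 is an immortalised human hepatic stellate cell line, labelled wild type in both groups, with no drug or knockdown named for either. The soft group (2K in its title) and the stiff group (40K) were each cultured for 2 days and profiled by CUT&Tag from 10000 cells per assay, as the labels give it. The study's methods give a higher cell number. Of 351202 peaks in the 14 lists of the series, the soft H3K27ac list held 18238 and the stiff list 13322. Peaks of both lists that shared at least 1 bp were joined, which gave 20403 acetylated regions. Each side is 1 merged list. The study's methods state that its sequencing experiments had biological replicates, but how many libraries lie behind each merged list is not given in the sources used here, so no replicate error can be stated, and every interval printed for H3K27ac covers counting error only. For the other antibodies there were 2 libraries per matrix, and the stiff p-JUN libraries carry TCP, the study's term for culture plastic, in their titles where the stiff histone libraries carry 40K.

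H3K27ac is placed by acetyltransferases such as EP300 on nucleosomes beside active promoters and enhancers, and it is removed by histone deacetylases. At promoters it usually lies with H3K4me3, whereas away from start sites it marks enhancers, whose activity differs most between cell types and states. Hepatic stellate cells store retinoids in the healthy liver and turn into matrix-secreting, contractile myofibroblasts in fibrosis, a change that a stiff substrate promotes. AP-1, a dimer of JUN, FOS and ATF family proteins, and TEAD, the partner of the mechanosensitive coactivators YAP and TAZ, bind many enhancers of such cells. In CUT&Tag an antibody tethers a transposase to the mark, and the fragments it releases are sequenced.

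The sequences that stand for the main contrast in DNA content are shown first. The AP-1 motif was searched as TGACTCA or TGAGTCA, which are each other's reverse complement, and the TEAD motif as GGAATG or its reverse complement CATTCC, so that both strands were read, within 250 bp of the highest summit of a region. Motifs were searched independently of each other, so the same bases could count for more than 1. Of all 20403 regions, 34.6% held an AP-1 motif and 33.7% a TEAD motif. For each matrix the 3 AP-1 regions with the highest −log10 q are printed from hg19, forward strand, with the motif in capitals, among autosomal regions called on that matrix alone also when both lists have equal length and away from long assembly gaps. Each line gives the list, the containing or nearest gene and the position.

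soft list alone, FRMD6, chr14:51865862-51865922: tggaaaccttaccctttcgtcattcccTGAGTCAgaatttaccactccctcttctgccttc
soft list alone, PLEKHA5, chr12:19291509-19291569: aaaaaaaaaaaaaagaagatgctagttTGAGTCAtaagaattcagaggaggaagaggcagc
soft list alone, LIMS1, chr2:109278810-109278870: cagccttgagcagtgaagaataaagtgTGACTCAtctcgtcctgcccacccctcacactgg
stiff list alone, ESYT2, chr7:158532736-158532796: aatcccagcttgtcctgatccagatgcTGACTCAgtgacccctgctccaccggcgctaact
stiff list alone, SPDYE10, chr7:72617915-72617975: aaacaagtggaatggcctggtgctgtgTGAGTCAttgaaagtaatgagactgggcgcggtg
stiff list alone, XKR3, chr22:17382720-17382780: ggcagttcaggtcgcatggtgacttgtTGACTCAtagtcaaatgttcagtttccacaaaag

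The soft-list region near FRMD6 lay between coding genes, 90.1 kb from the closest start site. Its summit held 100 fragments, and the stiff list would have needed 43 at that local background for a call. The regions in the gene bodies of PLEKHA5 and LIMS1, a focal adhesion adaptor, held 52 and 53 soft fragments where 18 and 20 were needed. All 3 of these motifs stood within 95 bp of the summit, and a p-JUN peak of all 4 p-JUN libraries overlapped each region.

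Of the stiff-list regions, the one inside ESYT2 held 37 fragments where the soft list needed 17, and the centre of its motif lay at -174 bp from the summit, which is farther than in the other 5. The regions near SPDYE10 and XKR3 held 64 and 31 fragments where 37 and 15 were needed. These last 2, and the LIMS1 region of the soft list, lie in DNA with copies elsewhere in the genome. Of the 32-base words of the SPDYE10 window 100% occur more than once in hg19, of the XKR3 window 68.4% and of the LIMS1 window 57.9%, against 47.4% for PLEKHA5 and 0% for ESYT2 and FRMD6. Reads from copies can be placed in more than 1 position, and the part of that in these calls was not tested.

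For TEAD, the 3 stiff-alone distal regions outside repeated sequence with the highest −log10 q are shown, a choice made after the motif shares had been seen.

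stiff list alone, NAV2, chr11:19956670-19956730: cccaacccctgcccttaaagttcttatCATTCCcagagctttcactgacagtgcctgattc
stiff list alone, GSK3B, chr3:119863338-119863398: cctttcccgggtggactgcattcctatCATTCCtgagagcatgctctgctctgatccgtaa
stiff list alone, CTNND2, chr5:12245697-12245757: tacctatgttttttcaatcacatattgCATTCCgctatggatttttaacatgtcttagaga

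The region in the body of NAV2 held 37 stiff fragments where the soft list needed 18. Its motif lies within 250 bp of the summit but past the end of the called region, at chr11:19956329-19956677. The region 49.5 kb from a start site of GSK3B, the kinase that marks beta-catenin for degradation, held 43 where 23 were needed, and the region 341 kb from CTNND2 held 49 where 27 were needed. Each of the 3 overlapped a p-JUN peak in both stiff p-JUN libraries, and the GSK3B region lacked one in soft replicate 2. The GSK3B window held 2 TEAD motifs, and the one left in lower case stands just before the motif in capitals.

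Before the lists were set against each other, their depth was compared. Soft summits held a median of 27 fragments and stiff summits 26, over a median local background of 3.00 and 3.08 fragments, and the peaks covered 9.52 and 6.88 Mb. Over regions called in both lists the stiff summit held a median of 0.865 times the soft fragments, and its local background was lower by 0.13 on the log2 scale. Folds below are therefore centred on the median of the shared regions, a log2 shift of -0.21. A region seen in 1 list alone was close to the call limit of the other list in many cases: 39.5% of soft-alone and 65.5% of stiff-alone regions had at most 5 fragments more than the other list needed at the same local background. Since the soft list is longer, each count is also given with both lists cut to 13322 peaks by −log10 q, which removes soft peaks under a −log10 q of 10.3 and leaves the stiff list whole. All regions on stiff alone stay so after that cut, and shared regions whose soft peak was cut join them.

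Acetylated regions were more often on the soft matrix alone than on the stiff matrix alone in the full lists, and the balance went with list length. Both lists held 11044 of the 20403 regions (54.1%), the soft list alone 7144 and the stiff list alone 2215 (10.9%). With lists of equal length the counts were 9453, 3839 and 3811, which that cut brings close to each other by construction. Regions of 1 list were narrow and shallow: the median width was 359 bp for soft alone and 343 bp for stiff alone, against 636 bp for shared regions, and the median summit held 21 and 19 fragments, against 32 on soft and 28 on stiff in shared regions. Summits at least 2-fold above what the other list allowed, after centring, were found in 188 soft-alone regions (2.63%) and 193 stiff-alone regions (8.71%). These counts were close to each other after centring, which lowers the soft-alone margins and raises the stiff-alone ones. Counts without centring were not made.

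Promoters, taken as 1 kb to either side of a coding start site, and distal regions were split in a similar way. Of 6437 promoter regions 35.1% were on soft alone and 9.01% on stiff alone, and of 13966 distal regions 4886 were on soft alone and 1635 (11.7%) on stiff alone. At equal length the promoter shares were 21.0% and 21.6% and the distal shares 23.1% and 22.6%. Distal regions lay inside coding genes in 51.6% of shared, 51.9% of soft-alone and 50.8% of stiff-alone cases, so the position in genes differed little between the classes.

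**Figure D1:**
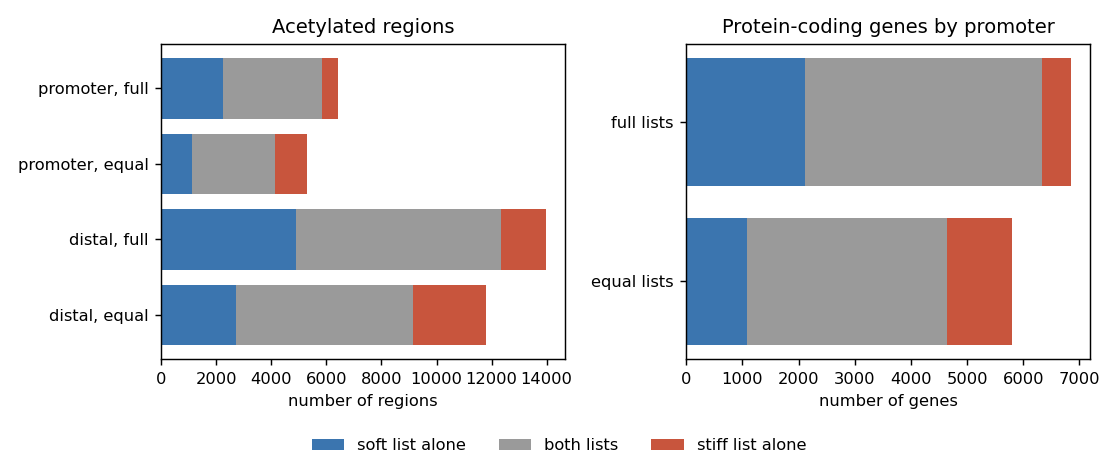
Number of acetylated regions (left) and of protein-coding genes with an acetylated promoter (right) on the soft list alone, in both lists or on the stiff list alone, with full lists and with lists of equal length. The stiff-alone part of distal regions grows from 1635 to 2670 and the soft-alone part shrinks from 4886 to 2727 when the lists are made equal.

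The height of shared regions varied about as much as counting alone would give, and more in the deepest regions. Over all 11044 shared regions the centred log2 ratio of stiff to soft fragments had an SD of 0.37, against 0.39 from counting error alone. A shared region had to pass the call limit in both lists, which leaves out large ratios at few fragments. Up to 40 fragments over both lists the SD was 0.38 against 0.50. The match with counting error is therefore partly set by that selection. In the 831 regions with more than 120 fragments over both lists, where precision is best, the SD was 0.32 against 0.24. Past a 2-fold difference after centring, 68 regions were higher on stiff and 32 on soft. Without centring the counts were 21 and 162, and with the deposited fold 0 and 0, so which matrix had more depends on the scaling. Of the 68, 12 lay in repeated sequence (at least 50% of 32-base words found more than once in hg19), as did none of the 32, and 453 of all 11044 shared regions did. In the deepest class 10 regions were past 2-fold on stiff and 0 on soft.

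**Figure D2:**
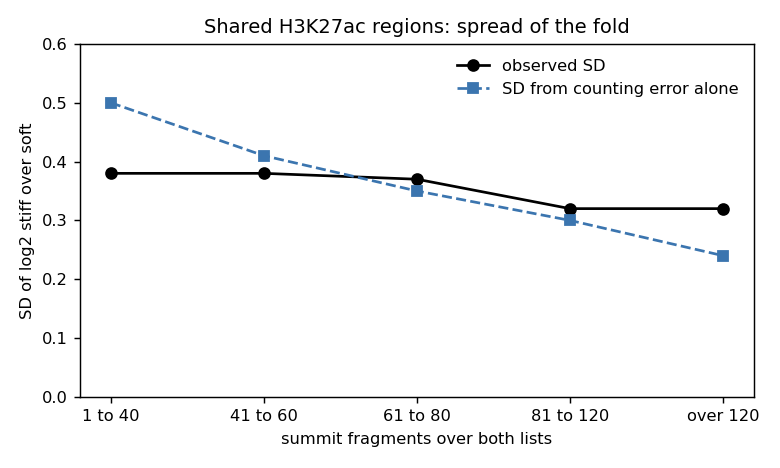
SD of the log2 ratio of stiff to soft fragments over shared H3K27ac regions (vertical axis, log2 units), by the number of fragments summed over both lists (horizontal axis), with the SD that Poisson counting of the 2 summits alone would give. Observed spread is under the counting value up to 60 fragments and above it beyond, most of all over 120 fragments (0.32 against 0.24).

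At gene level, 6845 of 19821 coding genes (34.5%) had an acetylated promoter in at least 1 list. Both lists held 4211 of them, the soft list alone 2122 (31.0% of acetylated genes) and the stiff list alone 512 (7.48%). At equal length 5800 genes remained acetylated, 1077 on soft alone (18.6%) and 1154 on stiff alone (19.9%), of which 642 had been in both full lists. These percentages are the background against which the gene groups below are read. Genes that share a promoter share a peak. Any coding start site counted, so a promoter peak can lie inside the gene, far from its outermost start. Below, this holds for ANXA2, MICAL3, IGF1R and LAMA3, among others.

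The soft-alone promoters with the highest −log10 q included RDH11, a retinol dehydrogenase, with 51 soft fragments where the stiff list needed 18. FBXO33, a ubiquitin ligase adaptor, held 45 where 17 were needed, and ZRANB2, a splicing protein, and CTNNBL1, a spliceosome-associated protein, held 31 each where 12 were needed. DNAJB4, a co-chaperone of the heat shock protein 70 system, held 53 where 23 were needed. The −log10 q used for the ranking rests on the same fragments and background, so a wide margin over the other list's limit follows from that choice. ANXA2, a calcium-dependent membrane and actin binding annexin, held 63 fragments where 30 were needed. MDC1, a mediator of the DNA damage response whose peak also serves the start of the tubulin gene TUBB, held 53 where 22 were needed, FEM1C, a ubiquitin ligase receptor, 41 where 17 were needed, and MICAL3, an actin-modifying oxidoreductase, 36 where 15 were needed. MAP3K12, a kinase upstream of JNK, was also named by this ranking (rank 1964 in the soft list) but is no loss. Its region at chr12:53894384-53895429 held 53 soft and 51 stiff fragments. The stiff peak lay in that region but outside the 1 kb window.

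On stiff alone the same ranking named NRXN2, VAC14, ANGPTL5 and KAZN, but all 4 had a soft peak in the same region that lay outside the window. Fragments in that region were 63 on soft and 65 on stiff for NRXN2, a neurexin, 57 and 71 for VAC14, a scaffold of phosphoinositide kinase PIKFYVE, 28 and 35 for ANGPTL5, and 50 and 43 for KAZN, a junction-associated protein. Such cases made up 11 of the 512 stiff-alone genes (2.15%) and 14 of the 2122 soft-alone genes (0.660%). The remaining 6, of which 5 are named here, had no soft peak in their region. STK3 (MST2), a core kinase of the Hippo pathway that restrains YAP, held 26 stiff fragments where the soft list needed 12. CHD4, the motor of the NuRD deacetylase complex, held 33 where 18 were needed, and PSMD7, a proteasome lid subunit, 23 where 12 were needed. The RNA-binding proteins KHSRP and HNRNPAB held 28 and 26 where 15 and 14 were needed. Each of these 5 summits was more than 1.5 times the limit of the soft list.

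Among 4145 genes with a shared region at the promoter, 7 (0.169%) were at least 2-fold higher on stiff and 3 (0.0724%) on soft after centring. The 6 genes per side named next have the largest ratios among those with at least 50 fragments over both lists, and not all of them reach 2-fold. ITGB2, the beta chain of the leukocyte integrins, held 18 soft and 42 stiff fragments, a centred log2 ratio of 1.43 (95% exact binomial interval 0.60 to 2.32). A second peak of this gene, at chr21:46348702-46349123, was in the stiff list alone with 92 fragments and stood at rank 44 of that list. The H3K4me3 libraries had no peak at an ITGB2 start site in soft replicate 1, and 30 fragments in soft replicate 2, 35 in stiff replicate 1 and 69 in stiff replicate 2. p-JUN at ITGB2 held 239 and 178 fragments in its soft replicates, against 190 and 220 in those labelled stiff, so these groups overlap. GLYCTK, a glycerate kinase, held 20 soft and 37 stiff fragments, and RAB11A, a recycling endosome GTPase, 19 and 34. C1orf43 held 21 and 36, LAMA3, a laminin chain, 25 and 40, and the ubiquitin-conjugating enzyme UBE2D2 20 and 32. Intervals of these last 5 reached down to between 0.04 and 0.27, close to no difference.

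Lower on stiff was IGF1R, the receptor of the insulin-like growth factors, with 40 soft and 15 stiff fragments, a centred log2 ratio of -1.21 (95% exact binomial interval -2.17 to -0.32). That region, chr15:99433276-99433776, lies at a start site inside the gene. H3K4me3 at IGF1R start sites held 15 fragments in soft replicate 1 and 18 in stiff replicate 2. The remaining H3K4me3 libraries had no peak there. MIA2, which takes part in the export of bulky secretory cargo from the endoplasmic reticulum, held 65 and 26 fragments (log2 -1.11, interval -1.83 to -0.44). HADHA, a mitochondrial beta-oxidation enzyme, held 61 and 27 (log2 -0.97). UNKL held 49 and 22, SP110, an interferon-inducible nuclear body protein, 39 and 18, and SNX14, a lipid-handling sorting nexin, 45 and 21. Genes picked for the largest ratios have intervals away from 0 by that choice, so these intervals show precision only.

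Gene groups were read against the 31.0% and 7.48% of all acetylated genes. Of 37 lists with 830 different members, 33 held more soft-alone than stiff-alone promoters, 3 held more stiff-alone ones (fibrillar collagens, other collagens, and TGF-beta and BMP signalling), and 1, the histone deacetylases and sirtuins, was even. No member was on stiff alone in 17 lists. In the surroundings of all coding genes, meaning distal regions within 100 kb assigned to the nearest start site, 3774 regions were on soft alone, 1270 on stiff alone and 5911 in both lists.

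**Figure D3:**
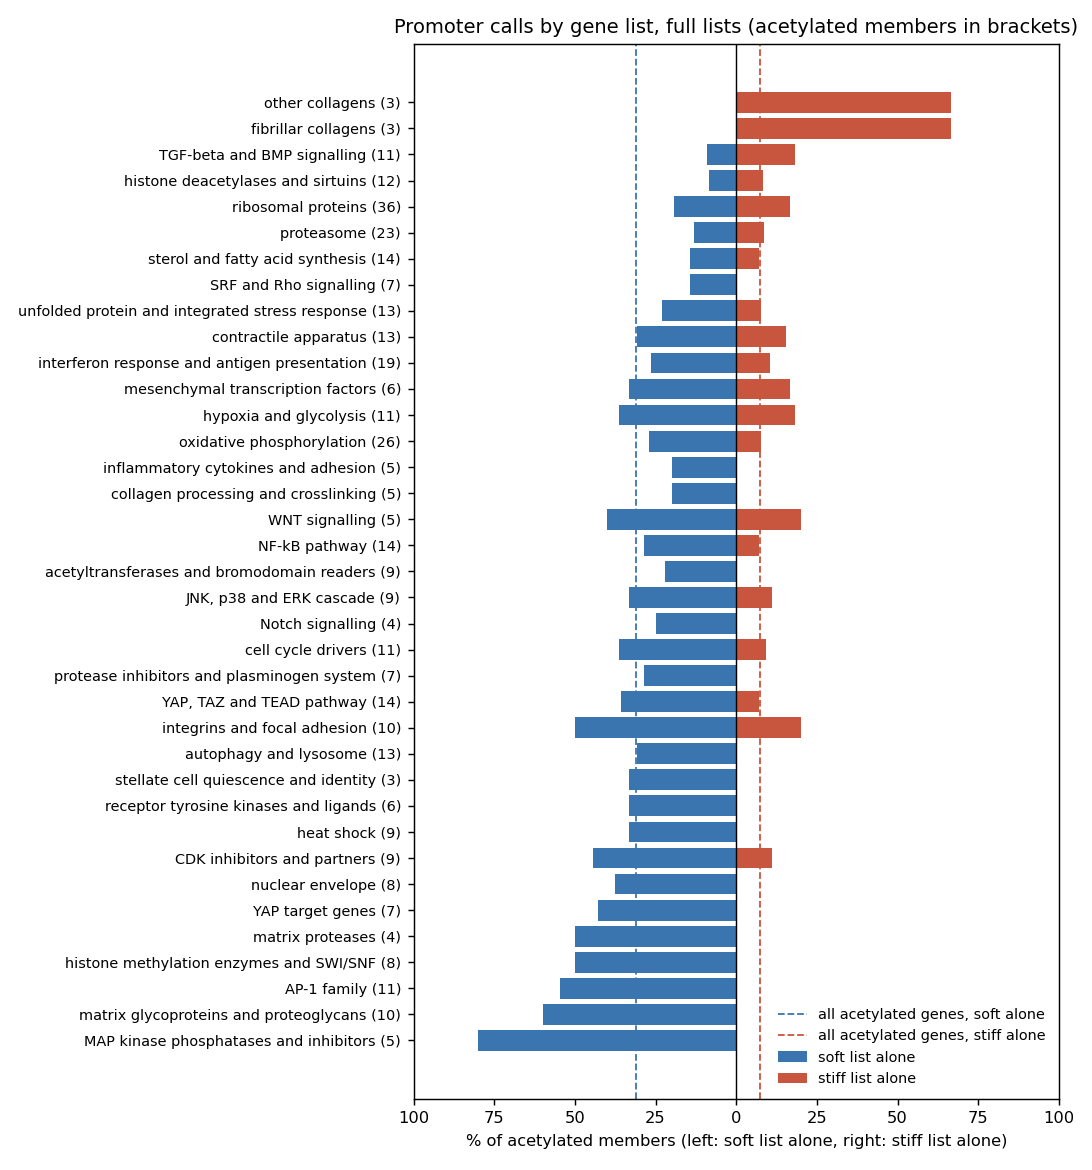
For each of the 37 gene lists, the share of acetylated members (number in brackets) with a promoter on the soft list alone (left, blue) and on the stiff list alone (right, red), in percent, with the share over all acetylated coding genes as dashed lines. Both collagen lists have bars to the right only, whereas AP-1 family members, matrix glycoproteins and MAP kinase phosphatases have bars to the left only; many lists rest on fewer than 12 acetylated members.

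Collagen promoters called on 1 matrix alone were all on the stiff list. Of 29 collagen genes 6 had an acetylated promoter, 4 of these on stiff alone, 0 on soft alone and 2 in both lists. Over all acetylated genes the shares were 7.48% on stiff alone and 31.0% on soft alone. COL1A1, the main chain of fibrillar collagen I, had its stiff peak at chr17:48278496-48279048, across its start site, with 42 fragments where the soft list needed 31. COL5A1, which nucleates collagen I fibrils, held 28 where 22 were needed, and COL12A1, a fibril-associated collagen, 26 where 21 were needed. COL6A1, of the beaded pericellular filaments, held 16 where 15 were needed, which is 1 fragment above the limit. Every 1 of the 4 was thus within 11 fragments of the soft limit, and the ranks of their peaks in the stiff list ran from 7056 to 13093 of 13322.

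The 2 shared collagen promoters differed. COL27A1 held 20 fragments in either list, and COL7A1, the anchoring fibril collagen, held 70 soft and 38 stiff fragments, a centred log2 ratio of -0.67 (95% exact binomial interval -1.28 to -0.08). COL1A2 and COL3A1, the partners of COL1A1 in interstitial collagen, had no promoter peak in either list. Around the 29 genes, 16 distal regions were on soft alone, 6 on stiff alone and 35 in both lists, a split near that over all coding genes.

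H3K4me3, which the H3K27ac lists did not use, was present at each of those 4 promoters in all 4 libraries. At COL1A1 the soft replicates held 234 and 315 fragments, the stiff replicates 326 and 464, and at COL12A1 302 and 332 against 416 and 632. The stiff libraries were the higher ones at both genes, but the median H3K4me3 summit of a whole library also ran from 120 and 141 fragments on soft to 151 and 207 on stiff. At COL6A1, with 179 and 281 against 237 and 360 fragments, the groups overlap. For p-JUN at COL1A1 the soft replicates held 161 and 121 fragments, those labelled stiff 106 and 154, which overlap as well.

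Promoters of other matrix genes were on soft alone or in both lists, whereas their surroundings were not on the soft side. Of 35 glycoproteins and proteoglycans 10 were acetylated, 6 on soft alone, 0 on stiff alone and 4 in both. LAMC1, a laminin chain, held 29 soft fragments where 20 were needed, and NID1, which links laminin to collagen IV in basement membranes, 21 where 13 were needed, and both stayed on soft alone at equal length. FN1, fibronectin, held 20 where 17 were needed, THBS1, a TGF-beta activator, 21 where 17 were needed, FBN2 14 where 12 were needed and IGFBP7 24 where 17 were needed. These 4 were absent from the equal-length lists. SPARC held 56 soft and 49 stiff fragments, GPC1 57 and 54, EFEMP2 54 and 50 and TNC, tenascin C, 38 and 29, and the median centred log2 ratio of the 4 was 0.06. The laminin chain LAMA3 was in both lists, as given above, so laminins had no common direction. Around the 35 genes 15 distal regions were on soft alone, 13 on stiff alone and 41 in both lists. Over all coding genes the split was 3774, 1270 and 5911. At equal length 3 of the genes had a net towards soft and 12 towards stiff, against 1352 and 1419 of all coding genes.

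The lists of enzymes that cut or crosslink matrix had no stiff-alone promoter, where few are found among all genes. Of 4 acetylated matrix proteases, MMP9 was on soft alone with 25 fragments where 18 were needed, and ADAM10 with 18 where 16 were needed, and neither remained at equal length. In the plasminogen system PLAU, urokinase, was on soft alone with 50 fragments where 35 were needed and TIMP1, an inhibitor of metalloproteinases, with 26 where 16 were needed. The urokinase receptor PLAUR was in both lists, at 63 soft and 32 stiff fragments, a centred log2 ratio of -0.77 (95% exact binomial interval -1.43 to -0.13). The collagen crosslinker LOX held 21 and 16 and the collagen prolyl hydroxylase P4HA1 28 and 22, with centred log2 ratios of -0.18 and -0.14.

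**Figure D4:**
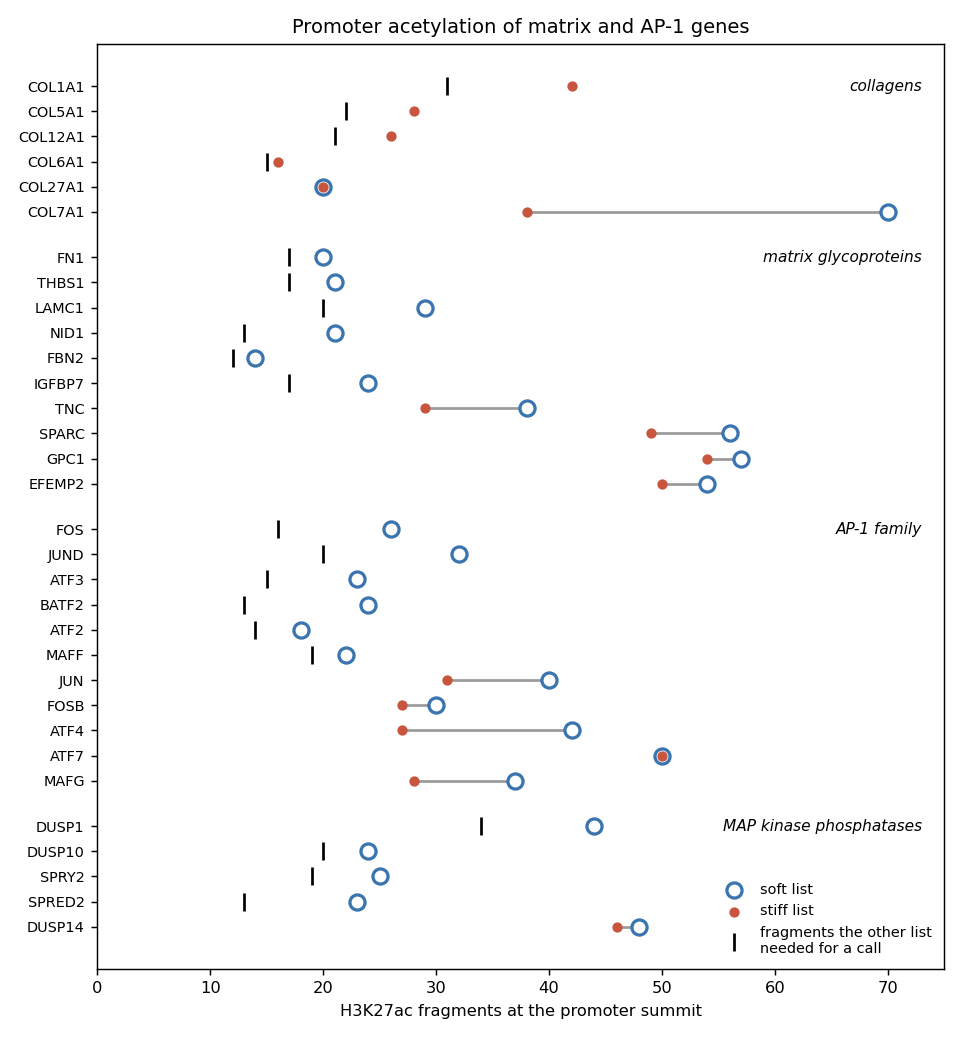
Fragments at the promoter summit (horizontal axis) for the acetylated members of 4 gene groups, in the soft list (blue ring) and in the stiff list (red dot), with a black tick at the number of fragments that the list without a call would have needed. COL1A1, COL5A1, COL12A1 and COL6A1 have a stiff value alone, from 16 to 42 fragments, and the single values of the other 3 groups are all soft.

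Promoters of AP-1 genes themselves were on soft alone or shared. Of 20 family members 11 were acetylated, 6 on soft alone, 0 on stiff alone and 5 in both, against 31.0% and 7.48% of all acetylated genes. FOS held 26 soft fragments where 16 were needed, JUND 32 where 20 were needed, ATF3 23 where 15 were needed and BATF2 24 where 13 were needed, and these 4 stayed on soft alone at equal length. ATF2 held 18 where 14 were needed and MAFF 22 where 19 were needed, and both were lost at equal length. JUN, whose phosphorylated form the study profiled, was in both lists with 40 soft and 31 stiff fragments (centred log2 -0.16), as were FOSB (30 and 27), ATF4 (42 and 27), ATF7 (50 and 50) and MAFG (37 and 28). The median centred ratio of the 5 was -0.16. Around the 20 genes 9 distal regions were on soft alone, 6 on stiff alone and 11 in both lists. At equal length 2 of the genes had a net towards soft and 6 towards stiff, so the surroundings did not share the direction of the promoters.

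Of 22 genes in the JNK, p38 and ERK cascade 9 were acetylated. Of these 3 were on soft alone, 1 on stiff alone and 5 in both lists. The shares over all acetylated genes were 31.0% on soft alone and 7.48% on stiff alone. The study saw less p-JUN after ERK was inhibited, and no change with inhibitors of JNK or p38. MAPK13, p38 delta, had the tallest single-list promoter of the group, with 60 soft fragments where 32 were needed. MAPK14, p38 alpha, was on stiff alone with 24 where 18 were needed. Of the phosphatases and inhibitors that end such signals, 5 were acetylated and 4 of these were on soft alone: DUSP1 held 44 fragments where 34 were needed, DUSP10 24 where 20 were needed, SPRY2 25 where 19 were needed and SPRED2, an inhibitor of the RAF step, 23 where 13 were needed. SPRED2 alone was kept at equal length. DUSP14 was in both lists with 48 and 46 fragments. In the surroundings of the 15 genes 11 distal regions were on soft alone and 0 on stiff alone, where the split over all coding genes also leans to soft.

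Of 30 adhesion genes 10 were acetylated, 5 on soft alone, 2 on stiff alone and 3 in both lists. Over all acetylated genes 31.0% were on soft alone, 7.48% on stiff alone and 61.5% in both. On soft alone were TNS3 (32 fragments where 16 were needed), FERMT2, kindlin-2 (28 where 20 were needed), TNS1 (27 where 16 were needed), ITGB5 (25 where 16 were needed) and ITGA1 (23 where 14 were needed), and all 5 were kept at equal length. The tensins and kindlin link integrin tails to actin, ITGB5 forms the vitronectin receptor that activates latent TGF-beta, and ITGA1 a collagen receptor. ITGB1, the common partner of collagen and fibronectin receptors, was on stiff alone with 29 fragments where 21 were needed, at chr10:33247461-33247730. ITGA2, another collagen receptor chain, was on stiff alone with 14 where 13 were needed. Around the 30 genes 29 distal regions were on soft alone and 7 on stiff alone, near the split over all coding genes, and LPP, a zyxin relative, accounts for 5 of the soft-alone regions and TNS3 for 4.

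Contractile genes showed no common direction. TPM2, a tropomyosin, was on soft alone with 27 fragments where 17 were needed, and VCL, vinculin, with 37 where 20 were needed. ZYX, zyxin, was on stiff alone with 27 where 22 were needed, and MYH10, non-muscle myosin IIB, with 17 where 15 were needed. The smooth muscle actin gene ACTA2, the usual marker of activated stellate cells, held 15 fragments in either list in its shared region, and had a further soft-list peak of 24 fragments. TAGLN held 26 soft and 33 stiff fragments, MYL9 38 and 37 and SMTN 49 and 30, with centred log2 ratios of 0.55, 0.17 and -0.50. Over the 7 shared members the median was 0.04. ACTG2 had no promoter peak in either list.

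In the Hippo pathway, which passes mechanical signals to TEAD, 14 of 20 genes were acetylated, 5 on soft alone and 1 on stiff alone. Both counts were near the shares over all acetylated genes, 31.0% on soft alone and 7.48% on stiff alone. YAP1 held 34 soft fragments where 22 were needed, TEAD4 29 where 20 were needed, the kinase LATS2 23 where 16 were needed and AMOTL2, which tethers YAP, 37 where 26 were needed, and these 4 stayed on soft alone at equal length. AMOTL1 held 18 where 15 were needed and did not. The stiff-alone member was STK3, given above. WWTR1 (TAZ) was in both lists with 47 and 38 fragments and TEAD2 with 33 and 20, at centred log2 ratios of -0.10 and -0.51. Of 7 acetylated YAP target genes 3 were on soft alone and 0 on stiff alone, and at equal length 1 and 2. ANKRD1 held 38 and 37 fragments. Around the 20 targets 22 distal regions were on soft alone and 5 on stiff alone, which is near the split over all coding genes.

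TGF-beta signalling was one of the 3 lists with more stiff-alone promoters. The receptor TGFBR1 was on stiff alone with 22 fragments where 16 were needed and the activin receptor ACVR1B with 15 where 13 were needed. The ligand TGFB2 was on soft alone with 29 where 17 were needed. The transducer SMAD3 held 52 and 44 fragments, SMAD4 28 and 16 and the target ID1 48 and 37. Over 8 shared members the median centred log2 ratio was -0.21, with 7 below 0 and none past 2-fold. In the surroundings of the 37 genes 25 regions were on soft alone and 7 on stiff alone, again near the split over all coding genes, with 6 soft-alone regions at SMURF2, a ubiquitin ligase for the receptors.

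Of 6 acetylated growth factor receptors and ligands 2 were on soft alone and 4 in both lists, close to the shares over all genes. PDGFRB, the main mitogen receptor of stellate cells, was on soft alone with 23 fragments where 16 were needed, and was lost at equal length. ERBB2 was on soft alone with 28 where 14 were needed and was kept. FGF1 held 47 and 58 fragments, a centred log2 ratio of 0.51. In the retinoid and quiescence list 3 of 19 genes were acetylated. RARA, the retinoic acid receptor alpha, was on soft alone with 60 fragments where 40 were needed, VDR held 29 and 27 and NR1H3, the liver X receptor alpha, 18 and 14.

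Interferon and NF-kB genes were shared about as often as all acetylated genes (61.5%), at 12 of 19 and 9 of 14. CXCL1, a neutrophil chemokine, was on soft alone with 25 fragments where 14 were needed, and IL32 held 31 and 16 (centred log2 -0.74). The NF-kB subunit RELB was on soft alone with 25 where 13 were needed, and NFKB2 on stiff alone with 22 where 21 were needed. Among interferon genes IRF1 was on soft alone with 42 fragments where 23 were needed and STAT2 with 30 where 16 were needed, while IRF2, which represses some of the same targets, was on stiff alone with 21 where 16 were needed. Of 24 interferon and antigen presentation genes 19 were acetylated, 5 on soft alone and 2 on stiff alone.

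Metabolic and growth genes had single-list promoters on either matrix. In hypoxia and glycolysis SLC2A1, the glucose transporter, held 20 stiff fragments where 17 were needed and LDHA, lactate dehydrogenase, 24 where 17 were needed, whereas HK1 held 41 soft fragments where 28 were needed and HIF1A 29 where 22 were needed. ENO1 held 32 and 39 fragments, a centred log2 ratio of 0.49. Among cell cycle drivers CCNA2, cyclin A2, was on stiff alone with 22 fragments where 14 were needed and its kinase partner CDK1 on soft alone with 24 where 13 were needed. Of 36 acetylated ribosomal protein genes 7 were on soft alone and 6 on stiff alone, and at equal length 3 and 10. RPL7A held 20 stiff fragments where 17 were needed, and RPS3 30 soft fragments where 17 were needed. Ribosomal protein genes have many processed copies, so their fragments are uncertain.

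Enzymes that write, read and erase the mark were mostly in both lists. EP300, an acetyltransferase that deposits H3K27ac, was on soft alone with 29 fragments where 16 were needed. BRD2, a reader, held 74 and 56 fragments, at a centred log2 ratio of -0.19. HDAC1 was on stiff alone with 12 fragments where 12 were needed, exactly at the limit. HDAC2 held 53 and 33 fragments (log2 -0.47) and HDAC6, a cytoplasmic tubulin deacetylase, 32 and 44 (log2 0.67). Of the nuclear envelope genes, whose lamins respond to stiffness, LMNA held 101 and 67 fragments (log2 -0.38), LMNB1 45 and 39 (log2 0.00) and SUN2 was on soft alone with 25 where 16 were needed.

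Across the remaining lists, single-list members were found on either matrix. SNAI2, a mesenchymal repressor of E-cadherin, was on soft alone with 23 where 15 were needed, and GLI2, a hedgehog effector, on stiff alone with 22 where 17 were needed. CDKN2C, a CDK inhibitor, held 36 soft fragments where 19 were needed and BAX, an apoptosis effector, 23 where 13 were needed. DDIT3 (CHOP) was on soft alone with 36 where 24 were needed and PPP1R15A, which reverses the same stress response, on stiff alone with 36 where 29 were needed. Of 9 acetylated heat shock genes 3 were on soft alone, among them HSF1 with 25 where 14 were needed. That count is near the 31.0% on soft alone over all acetylated genes. SDHA, a respiratory chain subunit, was on soft alone with 52 where 30 were needed and UQCRC1, another, on stiff alone with 25 where 17 were needed. The Notch ligand JAG1 had a soft-alone promoter of 26 fragments where 21 were needed and 5 soft-alone distal regions with 0 on stiff alone.

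Several genes named in the study had no acetylated promoter in either list, namely VCAN, MMP2, IGFBP3, COL8A1, ACTG2 and TIMP4. Around COL8A1 there were 4 shared regions and 1 on stiff alone, around IGFBP3 1 on stiff alone, and around TIMP4 1 shared and 1 on soft alone. The study presents TIMP4 as an example of higher H3K27ac on the stiff matrix, read from signal profiles, which are another measure than peak calls. For this depth it can only be said that no promoter peak was called.

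The label of a stellate cell line was checked against marker promoters. Of 12 stellate and fibroblast markers 7 were acetylated, VIM among them with 40 soft and 33 stiff fragments, while COL1A2, COL3A1, THY1 and DCN had no peak. Of 12 hepatocyte markers 1 was acetylated (FOXA3, on stiff alone with 18 fragments) and the other 11, ALB and HNF4A included, were not. Of 8 cholangiocyte markers 1 was (ANXA4, on soft alone), of 9 measured endothelial markers 0, of 9 macrophage markers 3 (CD14 and CSF1R on soft alone, CD68 in both), of 8 lymphocyte markers 1 (IL7R, in both) and of 8 neuronal markers 0. All of these counts are small, and PTPRC, which defines leukocytes, was in neither list.

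Distal regions were next assigned to the nearest coding start site within 100 kb, and for each gene the regions on soft alone were subtracted from those on stiff alone. Of 5540 genes with at least 1 single-list or shared region so assigned, 599 (10.8%) had a net of at least 2 regions towards soft and 52 (0.939%) towards stiff. At equal length 223 of 4989 genes (4.47%) and 158 of 4989 (3.17%) did. A gene with many regions has more chances to reach a net of 2, and long genes hold more of them.

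A net of at least 3 towards stiff was found for 7 genes, of which 6 are named. BCAT1, a branched-chain amino acid transaminase, had 4 stiff-alone regions and DOCK2, a RAC activator of blood cells, 4. ERBIN, an ERBB2-binding scaffold, ADCY9, an adenylate cyclase, ARHGAP29, a RHOA-inactivating protein and YAP target, and LIMD1, a LATS inhibitor, had 3 each. None of the 6 had a soft-alone region. Their stiff-alone regions were low: the 4 at BCAT1 held 13, 26, 16 and 29 fragments where 11, 21, 13 and 22 were needed. The tallest at DOCK2, chr5:169183803-169184291, held 31 fragments where 17 were needed and had 3 TEAD motifs, 0 AP-1 motifs and no p-JUN peak. LIMD1 also had a stiff-alone promoter of 22 fragments where 19 were needed, so both parts of that gene were on the stiff side.

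On the soft side ANO6, a calcium-dependent scramblase, and FRMD4A, a polarity scaffold, had 7 soft-alone regions each and RAD51B, DST and FRMD3 6 each, with 0 on stiff alone in all 5, while FMN1, a formin that builds actin cables at junctions, had 7 and 1. At RAD51B the region chr14:68925656-68926105 held 49 soft fragments where 17 were needed, and at DST, dystonin, chr6:56614432-56614929 held 40 where 18 were needed. Each of the 7 regions at ANO6 overlapped p-JUN peaks of all 4 p-JUN libraries. MYLK, the myosin light chain kinase, and RND3, an antagonist of RHOA signalling, had 5 soft-alone regions and 0 stiff-alone ones each, and LOXL2, a collagen crosslinker, 3 and 0. Net directions of any size were set against the promoter: genes with a soft-alone promoter had a net towards soft in 16.5% of cases, those with a stiff-alone promoter in 13.1% and those shared in 14.0%, and a net towards stiff in 4.34%, 4.69% and 4.27%.

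In DNA content, distal regions on stiff alone held fewer AP-1 motifs than the others. The motif was within 250 bp of the summit in 46.9% of shared distal regions, 47.0% of soft-alone ones (95% Wilson interval 45.6% to 48.4%) and 34.6% of stiff-alone ones. At equal length the shares were 48.3%, 50.9% and 35.8%. The difference of stiff alone minus soft alone was -12.4 percentage points over distal regions (95% interval -15.08 to -9.69) and -6.76 over all regions. Regions of a list are not replicates of a matrix, so no test was made. At promoter regions the shares were 12.7%, 8.46% and 9.66%, so the contrast was a distal one.

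The AP-1 contrast grew with the height of the summit. Among distal regions of at most 15 fragments the motif was in 43.5% of soft-alone and 38.3% of stiff-alone regions, and among those of 28 to 35 fragments in 46.7% and 25.8%. From 36 fragments up it was in 53.3% of 540 soft-alone and 28.7% of 122 stiff-alone regions. The tallest single-list regions thus differed most. Repeated sequence was also more common among the tall stiff-alone regions, at 11.5% from 36 fragments up against 3.70% on soft. With repeated sequence left out the difference over distal regions was -12.0 percentage points.

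TEAD motifs went the other way. They were in 39.9% of shared, 35.3% of soft-alone and 43.2% of stiff-alone distal regions, a difference of 7.98 percentage points (95% interval 5.24 to 10.73), and in 40.1%, 35.8% and 41.3% at equal length. Unlike the AP-1 share, the TEAD share of stiff-alone regions did not depend on height in a clear way, at 43.1% up to 15 fragments and 45.9% from 36 up. Distal regions with a TEAD motif and no AP-1 motif made up 30.5% of stiff-alone, 19.3% of soft-alone and 21.9% of shared ones. Those with AP-1 and no TEAD made up 21.8%, 31.0% and 28.9%. The median GC content was 46.1% for both single-list classes of distal regions and 48.7% for shared ones.

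**Figure D5:**
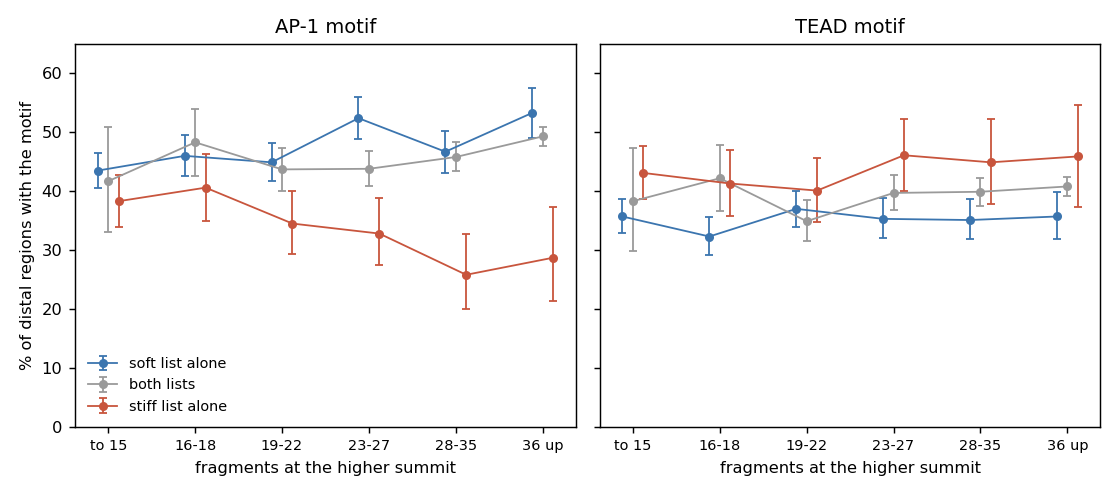
Share of distal H3K27ac regions with an AP-1 motif (left) or a TEAD motif (right) within 250 bp of the summit, in percent with 95% Wilson intervals, by fragments at the higher summit, for regions on the soft list alone, in both lists and on the stiff list alone. In the AP-1 panel the stiff-alone line ends at 28.7% and the soft-alone line at 53.3%, and in the TEAD panel the stiff-alone points lie above the soft-alone points in all 6 classes of height.

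Shared distal regions leaned in the same directions, by far less than their spread. The median centred log2 ratio was -0.054 with an AP-1 motif and 0.065 without, at SDs of 0.37 and 0.39. With a TEAD motif it was 0.033 and without -0.013. Other motifs differed less in percentage points, among them RUNX (TGTGGTT or AACCACA), in 14.0% of soft-alone and 12.2% of stiff-alone distal regions, and FOX (TGTTTAC or GTAAACA), in 8.13% and 5.32%. These motifs stood in 10.7% and 6.13% of all 20403 regions.

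Finally, readouts that the H3K27ac lists did not use were set against its classes. Of distal regions, a p-JUN peak overlapped 92.4% to 94.7% of shared ones over the 4 p-JUN libraries, 78.3% to 82.5% of soft-alone and 76.1% to 83.2% of stiff-alone ones. Among stiff-alone distal regions without an AP-1 motif the share was 71.3% and 68.7% for the soft p-JUN libraries and 70.6% and 78.5% for those labelled stiff. H3K4me3 overlapped 91.8% to 92.7% of soft-alone and 87.8% to 89.7% of stiff-alone promoter regions, so most promoters without a call in 1 list were marked by H3K4me3 on both matrices. H3K27me3, the repressive mark on the same residue, overlapped at most 1.16% of any class.

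For p-JUN the summit at 1468 stiff-alone regions was compared with that at 4921 soft-alone regions, all with a p-JUN peak in all 4 libraries. The median log2 difference was -0.114 and -0.052 for the soft replicates, against 0.034 and 0.101 for the libraries labelled stiff, and these groups do not overlap. The stiff minus soft difference was 0.150 (two-sided exact permutation test, p = 0.333, n = 2 per group), and 0.333 is the smallest p that 2 against 2 libraries can give. With lists of equal length the stiff minus soft difference was 0.110. There p-JUN was lower at stiff-alone regions in all 4 libraries. The contrasts were -0.290 and -0.248 for the soft replicates and -0.166 and -0.152 for those labelled stiff. For H3K4me3 at 494 stiff-alone and 2073 soft-alone promoters the same contrast was -0.064 and -0.048 for the soft replicates, against -0.017 and -0.073 for the stiff replicates, which overlap, and the difference was 0.010 (exact permutation test, p = 1.00).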

How the data were processed

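CUT&Tag reads from LX-2 cells, a human hepatic stellate cell line, were trimmed by the authors with Trim Galore, aligned to hg19 with Bowtie2 and marked for duplicates with Picard, per the labels and the study's methods. Versions, the options of the H3K27ac peak calls and any control library are not given in the sources used here. The deposited lists hold, per peak, a fold (a ratio of summit to local background), −log10 p and −log10 q values. The broad H3K27me3 lists were used for overlap alone.

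Samples were grouped by their treatment label. Whole fragments at each summit were recovered from the deposited fold and −log10 p, taken as a ratio with 1 added on either side and a Poisson tail, for 99.98% of H3K27ac peaks at a relative tolerance of 0.0001. Library totals were not analysed here, so depth is known only through these fragments. Peaks on the mitochondrial genome (4 soft, 3 stiff) were left out. The call limit of the other list was the smallest number of fragments reaching its lowest −log10 p (7.53 soft, 7.68 stiff) over the same background, scaled by the median shift of background.

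Start sites came from GENCODE release 44 mapped to hg19. Gene lists, markers, thresholds and named items were chosen with earlier results of these data known. Named genes were the 10 promoters per side with the highest −log10 q still on that side at equal length (away from long assembly gaps, 1 gene per peak), the 6 shared promoters per side with the largest fold and at least 50 fragments, the 6 genes per side with the largest net of surrounding regions, and, per list, single-list members by −log10 q and then shared members by fold, with further members of a list given for completeness after their values were seen. Some named items are not reported here. Motifs were searched in all regions, and printed sequences were taken from the hg19 genome outside chromosome 8. The 4 libraries of p-JUN and of H3K4me3 were set against each other with an exact permutation test, two-sided, where p measures the spread between these libraries, which the study's methods call biological replicates without saying that they are separate cultures. Fragment recovery and class calls were tested on simulated data from the soft H3K27ac list of 18238 peaks, where 99.99% of fragments and all 200 planted regions of each kind were found. Tables were handled with pandas 2.3.3 and numpy 2.4.6 in Python 3.11.15, intervals and permutations with scipy 1.17.1, the genome with pysam 0.24.0 and plots with matplotlib 3.10.9.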

Additional observations from a re-analysis of the deposited data

How the results depend on the processing

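Both H3K27ac lists are single, so no setting gives a replicate error, and shallow summits limit every single-list call. With lists of equal length by −log10 q the log2 ratio of stiff-alone to soft-alone regions moved from -1.69 to -0.01, that of promoters turned from -2.05 to 0.10, that of surroundings moved from -3.53 to -0.50, and the AP-1 difference from -6.76 to -11.3 percentage points. Equal length by the deposited fold gave -0.01, -0.23 and, turned, 0.50. Keeping peaks with a −log10 q of at least 10 gave -1.96 for regions, -4.31 for surroundings, -9.95 for AP-1 and 2.58 for the log2 ratio of shared regions past 2-fold (1.09 in full lists), which was 0.33 at 1.5-fold and turned to -2.95 (21 against 162 regions) without centring. With the deposited fold no shared region passed 2-fold (0 and 0), so that ratio has no value. A reciprocal overlap of 50% gave -1.20 for regions, a net of at least 3 gave -4.53 for surroundings, and AP-1 within 50 bp gave -3.44, distal regions -12.4 and distal regions without repeated sequence -12.0. The TEAD difference of 6.42 over all regions was 3.18 at equal length, 3.81 with reciprocal overlap and 1.91 within 50 bp. Settings on repeated sequence, distal regions and TEAD were chosen after seeing the data.

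Of 37 gene lists, the stiff-alone minus soft-alone count of promoters turned sign in 10 at equal length: contractile apparatus from -2 to 1, collagen processing from -1 to 1, YAP targets from -3 to 1, JNK, p38 and ERK cascade from -2 to 2, WNT from -1 to 1, inflammatory cytokines from -1 to 2, sterol synthesis from -1 to 3, hypoxia and glycolysis from -2 to 3, ribosomal proteins from -1 to 7 and proteasome from -1 to 2. It moved in 14 and stayed within 1.5 times in 13.

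For H3K4me3 the difference ranged from -0.018 (without stiff replicate 1) to 0.039 over libraries left out, and was -0.001 with classes of equal length and -0.010 with the deposited fold. The p-JUN difference ranged from 0.117 to 0.183 over libraries left out, and was 0.110 with classes of equal length and 0.061 with the deposited fold. With the replicate number as a block it was 0.150 for p-JUN (0.148 and 0.152 within numbers) and 0.010 for H3K4me3 (0.047 and -0.026), so the block changed no call.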
